A study of Mus musculus with 29 samples.

Results

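Aquaporin genes were followed through early pregnancy in the uterus of CD-1 mice. The 9 genes described are Aqp1, Aqp2, Aqp3, Aqp4, Aqp5, Aqp7, Aqp8, Aqp9 and Aqp11, which are 9 of the 27670 genes with a probe on the array. They were found by the gene name printed beside each non-control probe, or by the current symbol of that probe's accession, which gave 14 probes. Female pups received corn oil (CON) or genistein, a soy isoflavone with estrogenic activity, at 50 mg/kg/day (GEN) from postnatal day 1 to 5, and their uteri were taken in a later pregnancy. All mice were CD-1 females, and the labels give no further allele, agent or age. The 29 one-colour arrays formed 8 groups: 3 CON and 4 GEN samples on gestation day (GD) 1.5, 3 and 3 on GD3.5, 4 and 4 on GD4.5, and 4 and 4 on GD5.5. The labels do not say that samples came from separate animals, so p-values measure the spread between samples, which may in part be technical.

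Aquaporins are membrane channels that assemble as tetramers. Some pass water alone, while the aquaglyceroporins (Aqp3, Aqp7 and Aqp9) also pass glycerol. In the mouse uterus, fluid gathers in the lumen around mating and is absorbed before the embryo attaches, and aquaporins of the epithelium, vessels and muscle are among the channels that water can take during these days.

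A level here is the log2 of a probe's processed intensity minus the log2 of the 75th percentile of its own array. A level of 0 therefore equals that percentile, and levels of different genes are not compared, since probes bind with different strength. A difference between groups is in log2 units, with the standard error (SE) of the limma fit over all 29 arrays. A gene was called where its Benjamini-Hochberg adjusted p was under 0.05. Genes well above background on fewer than 3 arrays of the groups compared were not tested.

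Arrays of GD1.5 and GD3.5 (slides 1 to 4) had a 75th percentile between 1490.0 and 1840.3 intensity units, and arrays of the later days (slides 5 to 8) one between 733.9 and 994.8. Between 65.5 and 80.9% of spots were well above background, and 0 aquaporin spots were saturated. Since the slides changed between GD3.5 and GD4.5, day and slides cannot be told apart there, and that step was not tested, so an order of levels that crosses it is a description. Markers of smooth muscle (10 genes), uterine stroma (6) and simple epithelium (10) were well above background on all 29 arrays. Oviduct (4 genes) and ovary (7) markers were also measured, with 2 to 4 and 3 to 7 of them above background per array.

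The probes of Aqp1, Aqp2, Aqp3, Aqp5, Aqp8 and Aqp11, were well above background on 29 of 29 arrays. Aqp4, known from astrocytes, was so on 26 arrays with the brightest of its 3 probes. Aqp9, an aquaglyceroporin of liver and leukocytes, was so on 19 arrays with the brightest of 3, and Aqp7, the glycerol channel of fat cells, on 8 with the brighter of 2. The probes lie, on mouse build NCBI35, at chr6:55311856-55311915 for Aqp1 (plus strand), chr15:99579945-99580003 for Aqp5 (plus), chr7:93757914-93757973 for Aqp11 (minus), chr7:119570588-119570647 for Aqp8 (plus) and chr4:41231392-41231451 for Aqp3 (minus). That of Aqp2 spans 977 bases of chr15:99567392-99568368 (plus), and those of Aqp7 and Aqp9 are at chr4:41172673-41172732 and chr9:71145729-71145788 (both minus). Other aquaporin genes were near background: Mip, Aqp6 and Aqp12 were above it on 2, 7 and 2 arrays, at most 1 of the 3 was tested in any comparison, and 0 were called.

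The promoters of Aqp5, Aqp1 and Aqp11 are shown because the called changes below concern these 3 genes. Each is the 250 bases before the RefSeq transcription start on build GRCm38.p6, read on the gene's strand: Aqp5 at chr15:99590778-99591027 (plus), Aqp1 at chr6:55336049-55336298 (plus) and Aqp11 at chr7:97738248-97738497 (minus). Capitals mark the single motif match.
Aqp5: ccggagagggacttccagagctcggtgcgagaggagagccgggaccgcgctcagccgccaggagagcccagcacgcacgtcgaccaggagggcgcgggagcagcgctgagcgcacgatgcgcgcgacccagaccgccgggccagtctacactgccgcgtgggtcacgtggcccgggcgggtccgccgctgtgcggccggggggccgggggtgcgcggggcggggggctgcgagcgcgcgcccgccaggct
Aqp1: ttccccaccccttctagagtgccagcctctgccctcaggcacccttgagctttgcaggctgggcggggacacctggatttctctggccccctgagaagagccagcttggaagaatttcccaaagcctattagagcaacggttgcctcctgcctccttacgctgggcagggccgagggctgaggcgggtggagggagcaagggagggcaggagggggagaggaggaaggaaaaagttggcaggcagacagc
Aqp11: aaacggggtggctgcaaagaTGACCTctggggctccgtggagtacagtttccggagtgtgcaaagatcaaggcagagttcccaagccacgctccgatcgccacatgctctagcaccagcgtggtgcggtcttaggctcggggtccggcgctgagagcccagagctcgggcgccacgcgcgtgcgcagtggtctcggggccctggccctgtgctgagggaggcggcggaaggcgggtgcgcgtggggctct

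These motifs were searched on both strands: the estrogen response element GGTCANNNTGACC, its single arm AGGTCA (which overlaps the full element where an A precedes that), the single arm TGTTCT of the progesterone response element, and the FOXA motif TGTTTAC. Among 32851 such windows of 27025 genes, 0.0639, 14, 16.1 and 3.17% held a match to each in turn. The Aqp11 window holds 1 single arm of the estrogen element, read as TGACCT on the gene's strand and starting 230 bases before the transcription start. The Aqp5 and Aqp1 windows hold none of the 4 motifs, which says only that these letters are not in these 250 bases. The 3 windows differ in composition: 78.4% G or C and 38 CpG for Aqp5, 67.2% and 23 for Aqp11, and 62.0% and 5 for Aqp1, against medians of 52.4% and 6 over all windows.

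Aqp5, a water channel of the apical membrane of secretory glands, moved furthest of the 9 genes from GD1.5 to GD3.5 and fell in both exposures. In CON its level was 3.78, 3.13 and 3.66 at GD1.5 and -0.49, -0.46 and -0.77 at GD3.5. In GEN it was 1.90, 2.02, 1.01 and 1.55 at GD1.5 and -3.65, -2.96 and -2.90 at GD3.5. All GD3.5 samples lay under all GD1.5 samples, in either exposure. The change was -4.10 in CON (SE 0.71, 17.2-fold lower, limma adjusted p = 0.00179) and -4.79 in GEN (SE 0.67, 27.6-fold lower, adjusted p = 0.000115). The difference was -4.27 on the 1 slide with both days of CON, and -5.67 to -3.97 on the 3 slides with both days of GEN. Leaving out each array gave -4.30 to -3.97 in CON and -4.99 to -4.55 in GEN, and each stayed called. In whole uterus, fewer cells of a type and less RNA per cell cannot be told apart.

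Aqp5 was the called aquaporin in this step: 1 of 8 tested fell in CON, where 1.30% of 20615 genes were called lower, and 1 of 8 in GEN, where 2.34% of 20395 were. Aqp11 had the next smallest p. It was higher at GD3.5 in all 3 CON samples (0.58 to 0.73, against -0.81 to 0.42) and in all 3 GEN samples (0.31 to 1.03, against -1.41 to 0.22). The change of Aqp11 was 0.96 in CON (SE 0.44, adjusted p = 0.318) and 1.37 in GEN (SE 0.41, adjusted p = 0.0533), both short of a call. With each array left out the GEN value ran from 1.13 (without GD1.5 GEN 2) to 1.68 (without GD1.5 GEN 4), with adjusted p from 0.0161, in the latter case, to 0.25. Samples of the days did not overlap for 2 of 8 aquaporins in either exposure, Aqp5 and Aqp11, where 23.0% of all tested genes in CON and 28.4% in GEN did not overlap. The median change of the tested aquaporins was -0.37 in CON and -0.17 in GEN, beside 0.02 and 0.01 over all tested genes.

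The genes of luminal ion and fluid transport, a list of 23, held 2 called falls and 0 rises between these days in each exposure. Cftr, the chloride channel that drives fluid secretion, fell by 3.95 in CON (SE 0.37, limma adjusted p = 4.41e-06) and changed by -3.11 in GEN (SE 0.35, adjusted p = 1.42e-05). Clca1, a secreted regulator of chloride channels, changed by -6.97 in CON (SE 1.67, adjusted p = 0.0253) and by -7.31 in GEN (SE 1.56, adjusted p = 0.00679). Of the hormone receptors and hormone-responsive epithelial genes (12 tested), Muc1, a mucin of the luminal surface, and Lcn2, a secreted lipocalin, fell in both exposures (-2.88 and -2.79 for Muc1, -5.60 and -6.38 for Lcn2, in CON and GEN), and Areg, an EGF family ligand, rose in both (6.03 and 5.44). The list also had Lrp2, an endocytic receptor, called higher in GEN (2.89, SE 0.80, adjusted p = 0.0374) and at 2.93 in CON (SE 0.86, adjusted p = 0.075). Simple epithelium markers had 0 of 10 called in either exposure, with medians of -0.44 in CON and -0.24 in GEN, and their summed level was 7.01 to 7.70 at GD1.5 and 6.91 to 7.21 at GD3.5. Their part in the Aqp5 values was not tested.

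**Figure D1:**
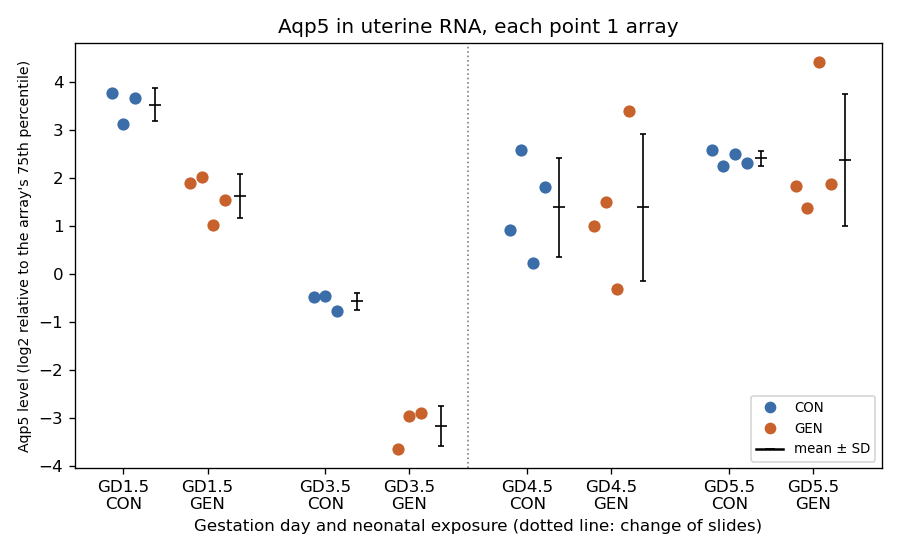
Aqp5 level on each array (points), in log2 relative to the 75th percentile of the array, by gestation day and exposure, with group mean and SD. The GD3.5 GEN samples, at -3.65 to -2.90, are the lowest of all 29, and the 3 GD1.5 CON samples, at 3.13 to 3.78, lie above all 4 GD1.5 GEN samples.

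Aqp5 was also the aquaporin with the largest gap between exposures on GD3.5, though the gap was not called. All 4 GEN samples lay under all 3 CON samples at GD1.5 (1.01 to 2.02, against 3.13 to 3.78), and all 3 under all 3 at GD3.5 (-3.65 to -2.90, against -0.77 to -0.46). The limma difference was -1.91 at GD1.5 (SE 0.67, 3.75-fold lower in GEN, unadjusted p = 0.00876, adjusted p = 0.538), the 333rd smallest p of 20504 genes. At GD3.5 it was -2.59 (SE 0.71, 6.04-fold lower, unadjusted p = 0.00135, adjusted p = 0.222), the 124th smallest of 20401. Within slides it was -2.39 to -1.76 at GD1.5 (2 slides) and -3.16 to -2.44 at GD3.5 (2 slides).

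On the later days the Aqp5 samples of both exposures overlapped. The GD4.5 levels were 0.92, 2.58, 0.22 and 1.82 in CON and 0.99, 1.49, -0.31 and 3.39 in GEN (difference 0.01, SE 0.62). Those of GD5.5 were 2.58, 2.25, 2.49 and 2.31 in CON and 1.83, 1.38, 4.41 and 1.87 in GEN (-0.04, SE 0.62). The GEN samples spread more than the CON samples at GD5.5 (SD 1.38 against 0.15), with GEN 3 above all others. The change of the exposure difference from GD3.5 to GD4.5 was 2.60 (SE 0.94, limma unadjusted p = 0.0111, adjusted p = 0.895), and the slides changed between these days as well. Averaged over the 4 days, the GEN to CON difference was -1.13 (SE 0.33, adjusted p = 0.112). It was called without GD4.5 GEN 4 (-1.30, adjusted p = 0.0212) or without GD5.5 GEN 3 (-1.30, adjusted p = 0.0209), and over the removal of each of 29 arrays ranged from -1.30 to -0.99 with adjusted p up to 0.206.

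By mean Aqp5 level, GD1.5 CON stood first (3.53 ± 0.35, SD, n = 3), then came GD5.5 CON (2.41 ± 0.15, n = 4), GD5.5 GEN (2.37 ± 1.38, n = 4), GD1.5 GEN (1.62 ± 0.45, n = 4), GD4.5 GEN (1.39 ± 1.53, n = 4) and GD4.5 CON (1.38 ± 1.03, n = 4), each of these later 5 overlapping the next. Samples of GD1.5 CON lay above those of GD5.5 CON, but the single highest samples of GD5.5 GEN (4.41) and GD4.5 GEN (3.39) fell above or within its range. GD3.5 CON (-0.57 ± 0.17, n = 3) and GD3.5 GEN (-3.17 ± 0.42, n = 3) followed, each apart from all other groups.

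Gland markers were lower in GEN beside these values. For the 7 gland genes tested, the median GEN to CON difference was -1.84, -2.39, -2.11 and -0.86 on the 4 days, with 1 of 7 called lower (Ttr, a carrier of thyroid hormone used here as a gland marker) at GD1.5, GD3.5 and GD4.5 and 0 at GD5.5. Over the 4 days together 5 of 7 were lower, among them Prss29, a serine protease of the glands (-3.57, SE 0.81, limma adjusted p = 0.0272), Ttr (-2.16, SE 0.22, adjusted p = 5.7e-06) and Foxa2, the transcription factor of the glands (-1.40, SE 0.20, adjusted p = 0.000472). The summed level of the 7 was 2.65 to 6.76 in CON and 0.49 to 1.94 in GEN at GD1.5, and 2.68 to 3.80 against -0.03 to 1.47 at GD3.5. At GD4.5, where the Aqp5 samples of the exposures overlapped, it was 4.47 to 7.01 against 1.40 to 4.40, and at GD5.5, where they overlapped as well, 6.68 to 7.72 against 4.71 to 6.54. Ttr was well above background on 12 of 29 arrays, the fewest of the list. All 7 gland genes were above background together on CON arrays only, with 5 or 6 of 7 on each GEN array. Ttr thus passed the filter mostly through CON arrays, where it is high. Its calls and differences are limited by background in GEN and are not measured folds. Simple epithelium had 0 of 10 called between exposures on any day, with medians of -0.14, 0.03, -0.49 and 0.16. The part of the glands in the Aqp5 difference was not tested.

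No aquaporin was called between exposures on any single day or over the 4 days. At GD1.5, 0 of 8 tested were called, where 0.0975% of 20504 genes were. At GD3.5 it was 0 of 8, against 0.103% of 20401. At GD4.5 it was 0 of 9, against 0.116% of 21620. At GD5.5 it was 0 of 7, against 0% of 20828, of which 1101 had an unadjusted p under 0.05. Over the 4 days it was 0 of 9, against 1.00% of 23338. At an unadjusted p under 0.05 stood Aqp5 on GD1.5 and GD3.5, Aqp4 on GD4.5, none on GD5.5, and Aqp5 and Aqp7 over the 4 days, Aqp7 with signals that were mostly not above background.

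Samples of the exposures did not overlap for 2 of 8 tested aquaporins at GD1.5, where 8.33% of genes did not. These were Aqp5 and Aqp1, the water channel of endothelium and red cells, whose GEN samples (5.01 to 5.17) lay under its CON samples (5.32 to 5.53) by a small margin (-0.33, SE 0.33, limma adjusted p = 1). The Aqp1 SE also depends on the later days: its SDs were 0.10 in CON and 0.07 in GEN at GD1.5, and 0.51 to 0.70 at GD4.5 and GD5.5. At GD3.5 the exposures did not overlap for 1 of 8, Aqp5, where 20.3% of genes did not. At GD4.5 and GD5.5 it was 0 of 9 and 0 of 7, where 4.14% and 1.72% did not. The median GEN to CON difference of the tested aquaporins was -0.16, 0.05, 0.01 and 0.08 on the 4 days, beside -0.01, -0.03, -0.04 and -0.01 over all tested genes. For the change of the exposure difference between successive days, 0 of 8, 0 of 9 and 0 of 9 aquaporins were called, where 0%, 0% and 0.00443% of all genes were, and 486, 1044 and 1621 genes had an unadjusted p under 0.05.

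**Figure D2:**
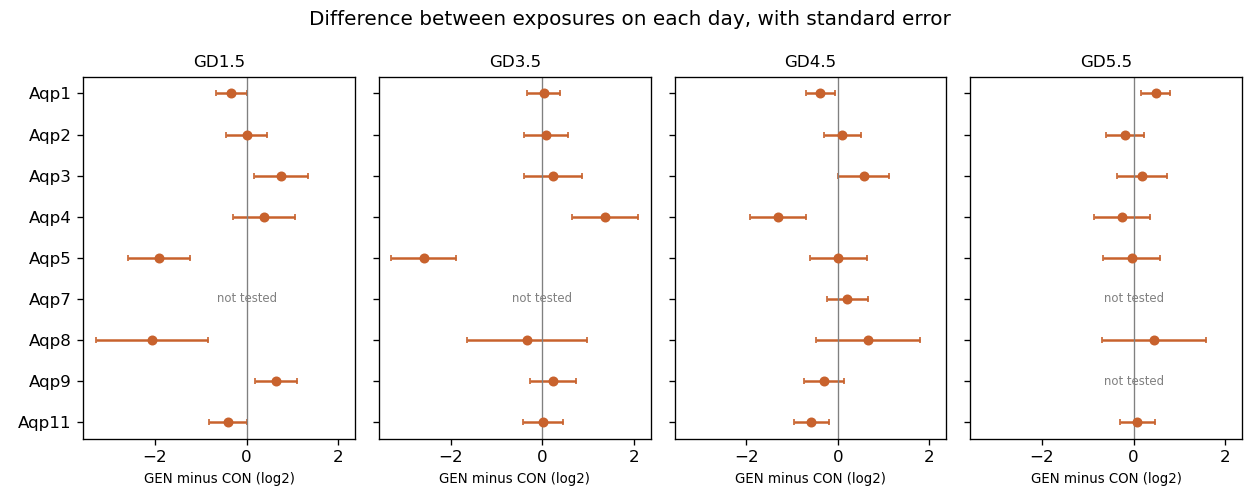
GEN minus CON difference (log2) of each tested aquaporin on each day, with the standard error of the limma fit. Aqp5 stands at -1.91 on GD1.5 and -2.59 on GD3.5 and near 0 on GD4.5 and GD5.5, and no value was called.

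Over the last step, around the time the embryo attaches and the stroma begins to decidualize, Aqp1 and Aqp11 fell in CON. Aqp1 in CON was 5.33, 4.23, 5.21 and 5.17 at GD4.5, then 2.78, 3.24, 4.02 and 3.61 at GD5.5. All GD5.5 samples lay under all GD4.5 samples, and Aqp1 fell by 1.57 (SE 0.31, 2.98-fold lower, limma adjusted p = 0.000629). The change was -1.97 to -1.31 within each of 4 slides, and -1.83 to -1.36 with each array left out.

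Aqp1 in GEN was 4.38, 4.02, 4.67 and 5.33 at GD4.5, then 3.69, 4.16, 4.68 and 3.03 at GD5.5, so the days overlapped. The GEN difference was -0.71 (SE 0.31, limma adjusted p = 0.1). It was called without GD4.5 GEN 2 (-0.91, adjusted p = 0.0421) or without GD5.5 GEN 3 (-0.98, adjusted p = 0.0242), and with normexp background correction (-0.95, adjusted p = 0.0106). Normexp raised the low signals of GD5.5 GEN 1, 2 and 3, however, with values given below. Without GD5.5 GEN 4 or GD4.5 GEN 4 the GEN difference was -0.43 or -0.47. That the CON and GEN changes differ was not shown: the difference between them was 0.86 (SE 0.44, unadjusted p = 0.0614, adjusted p = 0.72). By group mean Aqp1 ran from 5.42 ± 0.10 (SD, n = 3) at GD1.5 CON to 3.41 ± 0.53 (n = 4) at GD5.5 CON, with GD5.5 GEN at 3.89 ± 0.70 (n = 4). Neighbours in that order overlapped except GD3.5 CON (5.36 ± 0.09, n = 3) and GD1.5 GEN (5.08 ± 0.07, n = 4).

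Aqp11, an intracellular aquaporin of the endoplasmic reticulum known for its role in the kidney, fell in both exposures. In CON it was 0.00, -1.61, 0.27 and -0.11 at GD4.5, then -2.55, -2.59, -2.23 and -2.28 at GD5.5. In GEN it was -1.31, -1.63, -0.18 and -0.63 at GD4.5, then -2.52, -2.09, -2.07 and -2.64 at GD5.5. The 8 GD5.5 samples lay under the 8 GD4.5 samples. The change was -2.05 in CON (SE 0.38, 4.14-fold lower, limma adjusted p = 0.00035; within slides -2.86 to -0.94). In GEN it was -1.39 (SE 0.38, 2.63-fold lower, adjusted p = 0.0131; within 2 slides -2.46 to -0.46). The GEN call was lost with slide as a block (-1.10, adjusted p = 0.166), with normexp background correction (-0.69, adjusted p = 0.11) and without GD4.5 GEN 3 (-1.14, adjusted p = 0.054). After normexp the 5th percentile of signal was 297, 502 and 228 on GD5.5 GEN 1, 2 and 3. It was 65.9, 62.8 and 62.9 after a refit without spots of high local background, which kept the call. The CON and GEN changes of Aqp11 differed by 0.65 (SE 0.53, adjusted p = 0.817). Aqp11 was highest at GD3.5 (0.68 ± 0.08 in CON and 0.68 ± 0.36 in GEN, SD, n = 3 each), and its 2 GD5.5 groups were apart from all others.

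Of the aquaporins, 2 of 9 tested fell in CON, where 14.0% of 21677 genes were called lower, and 1 of 8 fell in GEN, where 8.67% of 20938 were. The days did not overlap for 2 of 9 in CON, Aqp1 and Aqp11, where 27.2% of genes did not, and for 1 of 8 in GEN, Aqp11, where 14.3% did not. Medians were -0.35 in CON and -0.23 in GEN, beside 0.02 and 0.09 over all tested genes.

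Marker genes of several tissues changed over the same step. In CON, 6 of 10 simple epithelium genes were lower, among them the tight junction genes Cldn3 (-2.45, SE 0.35, limma adjusted p = 2.67e-05) and Cldn7 (-2.40, SE 0.37, adjusted p = 6.05e-05) and Elf3, an epithelial transcription factor (-2.21, SE 0.51, adjusted p = 0.00243). In GEN 4 of 10 were lower. All 10 were well above background on every array, and their summed level in CON was between 6.98 and 7.84 at GD4.5 and between 6.18 and 6.61 at GD5.5, and in GEN between 5.88 and 8.02 and then between 6.02 and 6.75. Smooth muscle markers had 6 lower and 1 higher of 10 in CON, and 1 and 1 in GEN. Of 9 endothelium markers, the tissue in which Aqp1 is best known, 2 were higher (Cdh5 and Kdr) and 2 lower (Tek and Vwf) in CON, and 1 was lower (Tek) in GEN, with a summed level of 5.01 to 5.31 at GD4.5 and 5.23 to 5.46 at GD5.5 in CON, and 5.18 to 5.32 and 5.09 to 5.33 in GEN. Macrophage and dendritic cell markers, all 8 above background on every array, had 6 of 8 lower in CON (median -1.06, with Adgre1 at -1.71) and 1 of 8 in GEN (median -0.51), and their summed level in CON was between 3.73 and 4.84 at GD4.5 and between 2.55 and 3.49 at GD5.5. Gland markers had 3 of 7 lower in CON (Cxcl15, Wfdc3 and Foxa2) and 0 of 6 tested called in GEN. Uterine stroma had 3 higher and 1 lower of 6 in CON and 1 lower in GEN, the lower gene being Dcn, a matrix proteoglycan, in both. Neutrophil markers had 3 of 9 tested lower in CON and 0 of 9 called in GEN. Stratified epithelium (of 8 tested in CON and 7 in GEN) and oviduct (of 4) each had 1 lower in either exposure, and ovary (of 7) had 1 higher and 1 lower in either. The higher ovary gene was Cyp11a1 (7.89, SE 0.90, limma adjusted p = 2.15e-06 in CON, and 7.08, SE 0.90, adjusted p = 3.63e-05 in GEN). The lower was Star (-0.97 in CON and -1.34 in GEN). The median of the 7 ovary genes was -0.52 in CON and 0.18 in GEN, so the list did not rise with Cyp11a1 as a whole. Red blood cell markers had 0 of 3 tested called in either exposure. The part of these cell types in the Aqp1 and Aqp11 values was not tested.

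The luminal ion and fluid transport list had 9 lower and 2 higher of 23 in CON and 1 lower and 1 higher in GEN. In CON, Fxyd4, a regulator of the sodium pump, fell by 6.61 (SE 1.14, limma adjusted p = 0.00019), Car12, a membrane-bound carbonic anhydrase, fell by 1.57 (SE 0.46, adjusted p = 0.0127), and Ano1, a calcium-activated chloride channel, rose by 1.88 (SE 0.24, adjusted p = 7.48e-06). Ano1 also rose in GEN (1.06, SE 0.24, adjusted p = 0.00462). Between exposures this list had 1 call at GD1.5, Atp6v1c2, a subunit of the vacuolar proton pump (-3.09, SE 0.58, adjusted p = 0.0296), 0 on the other days, and 2 over the 4 days, Atp6v1c2 (-1.75, SE 0.28, adjusted p = 0.0015) and Fxyd3, another sodium pump regulator (-0.87, SE 0.21, adjusted p = 0.0431).

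**Figure D3:**
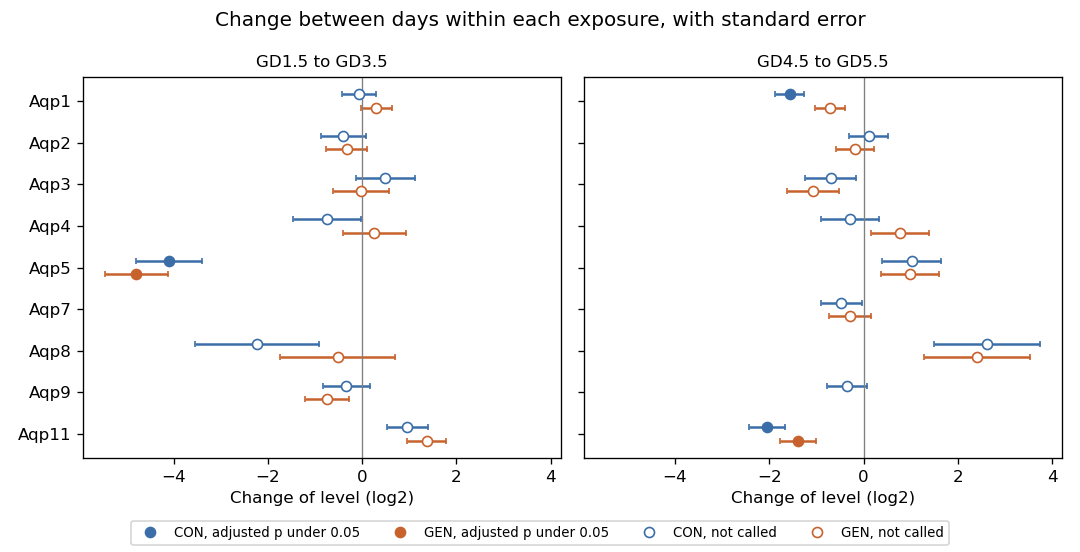
Change of level between days (log2, with the standard error of the limma fit) of each tested aquaporin in CON and GEN. Filled points were called: Aqp5 in both exposures from GD1.5 to GD3.5 (-4.10 and -4.79), and Aqp11 in both (-2.05 and -1.39) and Aqp1 in CON (-1.57) in the later step, GD4.5 to GD5.5.

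Aqp8, a channel for water, ammonia and hydrogen peroxide, had the largest SD within a group of the 9 genes (3.45, in GD4.5 GEN). At GD1.5 the CON samples were at -2.73, 0.06 and 1.43, and the GEN samples at -2.63, -3.03, -2.39 and -1.83 (difference -2.06, SE 1.22, limma adjusted p = 0.982). On GD4.5 they were at -1.09, 0.40, -1.09 and -1.14 in CON and -1.46, -1.46, -2.40 and 5.06 in GEN. On GD5.5 they were at 0.08, 2.77, 2.91 and 1.78 in CON and 2.56, 1.16, 4.04 and 1.60 in GEN. GD4.5 GEN 4 thus stood above every other sample, and the other 3 GD4.5 GEN samples stood under all GD5.5 samples. The change from GD4.5 to GD5.5 was 2.62 in CON (SE 1.13, adjusted p = 0.0863) and 2.41 in GEN (SE 1.13, adjusted p = 0.13). Without GD4.5 GEN 4 the GEN change was 4.12 and called (adjusted p = 0.00273), and without GD4.5 GEN 3 it was 1.63.

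That GD4.5 GEN 4 sample also had the highest Aqp3 level, -0.55, where the other GD4.5 GEN samples were at -3.85 to -2.35, and the highest Aqp5 level of its day. Its simple epithelium markers summed to 8.02, the highest of GD4.5, and its gland markers to 1.40, the lowest of GD4.5. The list of hormone receptors and hormone-responsive genes summed to 8.78 there, against 6.01 to 7.04 in the other GD4.5 samples. Its luminal ion and fluid transport list (7.56) and oviduct markers (2.06) were the highest of GD4.5 as well, and its neutrophil markers (0.76) the lowest. The part of these in its aquaporin values was not tested. Aqp3, an aquaglyceroporin of basolateral membranes of epithelium, was at -4.26 to -0.55 over all 29 arrays, neighbouring groups overlapped throughout, and it was not called in any comparison. Its group means ran from -2.57 ± 1.49 (SD, n = 4) at GD4.5 GEN to -3.83 ± 0.32 (n = 4) at GD5.5 CON.

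Aqp7 was well above background on 0 of 3 CON and 2 of 4 GEN arrays at GD1.5 and on none at GD3.5. The GD1.5 mean was -6.58 in GEN and -7.78 in CON. The GEN mean holds signals not above background as well, so no fold is given, and Aqp7 was not tested on that day. The 2 GEN arrays above background were on slide 3, which held no GD1.5 CON array. Within slides 1 and 2, which held both exposures, the GEN to CON difference was 0.55 and 0.71. From GD1.5 to GD3.5 the GEN mean went from -6.58 to -7.39, and from -1.03 to -0.31 was the change within 3 slides. It was not tested, and no fold is given, since no GD3.5 array was above background. No averaged difference over the 4 days is given for Aqp7, since its probe was above background on 8 of 29 arrays.

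Fat cell markers, among them Adipoq, stood beside Aqp7 at GD1.5: 8 of 8 were positive with a median difference of 2.41, and 0 were called. Their summed level there was 1.31 to 3.09 in CON and 1.45 to 5.46 in GEN, so the exposures overlapped, and Lep was above background on 6 of 29 arrays. In GEN from GD1.5 to GD3.5 the 8 on the array had a median of -2.88, again with 0 of 7 tested called. The part of fat cells in the Aqp7 values was not tested. Of 10 genes of glycerol handling, 0 were called between exposures on any day, and between GD1.5 and GD3.5 1 fell in each exposure: Gpat3, an acyltransferase of glycerol phosphate, in CON (-1.31, SE 0.34, limma adjusted p = 0.0394) and Gpd1, glycerol phosphate dehydrogenase, in GEN (-3.64, SE 0.77, adjusted p = 0.00646). In the later step the glycerol list had 2 higher and 2 lower in CON and 2 higher and 1 lower in GEN, and Gk, glycerol kinase, rose in both (0.99, SE 0.25, adjusted p = 0.00486 in CON, and 0.78, SE 0.25, adjusted p = 0.0312 in GEN).

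Aqp9 was called in no comparison. It was above background on all 13 arrays of GD1.5 and GD3.5 and on 0 of 4 GD5.5 GEN arrays, and its group means ran from -5.96 to -4.81. Aqp4 lay at -3.88 to -3.02 in CON and -6.80 to -3.85 in GEN at GD4.5 (-1.31, SE 0.62, limma unadjusted p = 0.0464, adjusted p = 0.522). The GEN sample at -6.80, GEN 3, was not above background, and without it the difference was -0.67. At GD3.5 the Aqp4 difference was 1.38 (SE 0.72, adjusted p = 0.988). The other 2 Aqp4 probes were above background on 3 and 1 of the 8 GD4.5 arrays, too few to set their differences there beside that of the brightest probe.

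Aqp2, the vasopressin-regulated channel of the kidney collecting duct, was between -3.64 and -1.15 on all arrays. No comparison called it, and its GEN to CON difference was 0.00 (SE 0.44) at GD1.5, 0.08 (SE 0.48) at GD3.5, 0.10 (SE 0.41) at GD4.5 and -0.19 (SE 0.41) at GD5.5. Its level went with the slide. The 4 arrays on slide 8, 1 from each GD4.5 and GD5.5 group, were at -1.33, -1.51, -1.49 and -1.15, above all 12 arrays of slides 5 to 7 at -3.27 to -2.19. Such a pattern for slide 8 held for 1.27% of 16471 genes and for 1 of 6 aquaporins examined, and for slides 5, 6 and 7 for 0.0121, 0.862 and 0.0546% of genes. This feature was chosen after its values were seen.

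**Figure D4:**
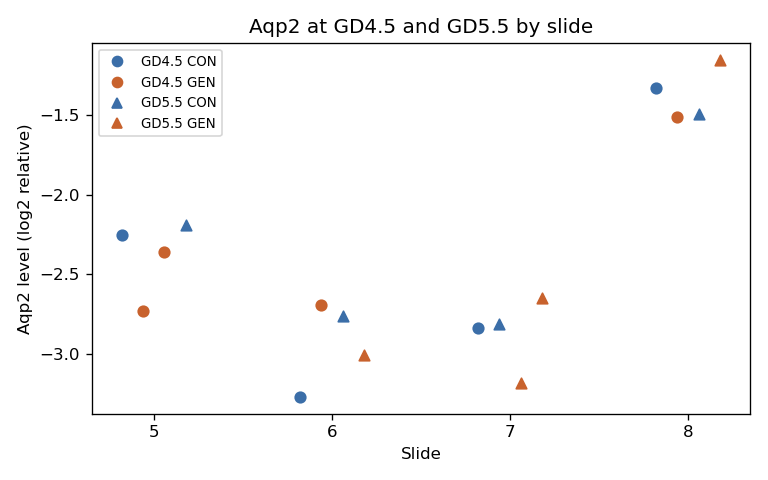
Aqp2 level (log2 relative to the 75th percentile of the array) on the 16 GD4.5 and GD5.5 arrays by slide, coloured by exposure and shaped by day. The 4 arrays of slide 8 lie at -1.51 to -1.15, above the 12 arrays of the other slides at -3.27 to -2.19.

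Aqp2 and Aqp5 are neighbours on chromosome 15, in the order Bcdin3d, Faim2, Aqp2, Aqp5, Aqp6 and Racgap1, and Aqp7 and Aqp3 are neighbours on chromosome 4. Beside the fall of Aqp5 from GD1.5 to GD3.5, 0 of the 4 tested neighbours were called. Aqp2 had -0.40 (SE 0.48, limma adjusted p = 0.851) in CON and -0.33 (SE 0.44, adjusted p = 0.77) in GEN, Faim2 had 0.13 and -0.30, Bcdin3d -0.09 and -0.05, and Racgap1 0.83 and 0.61, while Aqp6 was not tested.

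The genes whose levels ran most like each aquaporin other than Aqp7, which was above background on fewer than 15 arrays, were found by Pearson's r over the 29 arrays, after centring each gene within slides 1 to 4 and within slides 5 to 8, among 15247 genes. They are a description, since the arrays share groups and slides. For Aqp5 they were Pla2g12a (0.90), Cfi (0.88) and Sdcbp2 (0.87), for Aqp1 Emp2 (0.94), Cbx7 (0.94) and Rtl5 (0.93), and for Aqp11 Pllp (0.95), Ap1s3 (0.95) and Lpar3 (0.94), the last a receptor of lysophosphatidic acid known from implantation. The Aqp5 likeness was closer on slides 1 to 4 (0.94 for Pla2g12a) than on slides 5 to 8 (0.72), and the Aqp1 likeness the other way (0.68 and 0.96 for Emp2). Aqp8 ran with Sil1 (0.82), Ctsl (0.77) and Inhbb (0.77), Aqp3 with Podnl1 (0.89), Cytip (0.87) and Cxcr6 (0.86), and Aqp9 with Tmigd3 (0.83), Gfi1b (0.78) and Gata1 (0.74). Aqp4 ran with Clec4f (0.73) and Btbd8 (0.70), and Aqp2 with Spata31d1a (0.86) and the odorant receptor genes Olfr1366 (0.85) and Olfr549 (0.85). Between these 8 aquaporins r was 0.77 for Aqp1 with Aqp11, 0.56 for Aqp5 with Aqp8, and -0.51 for Aqp5 with Aqp11, and the rest lay between -0.48 and 0.36.

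**Figure D5:**
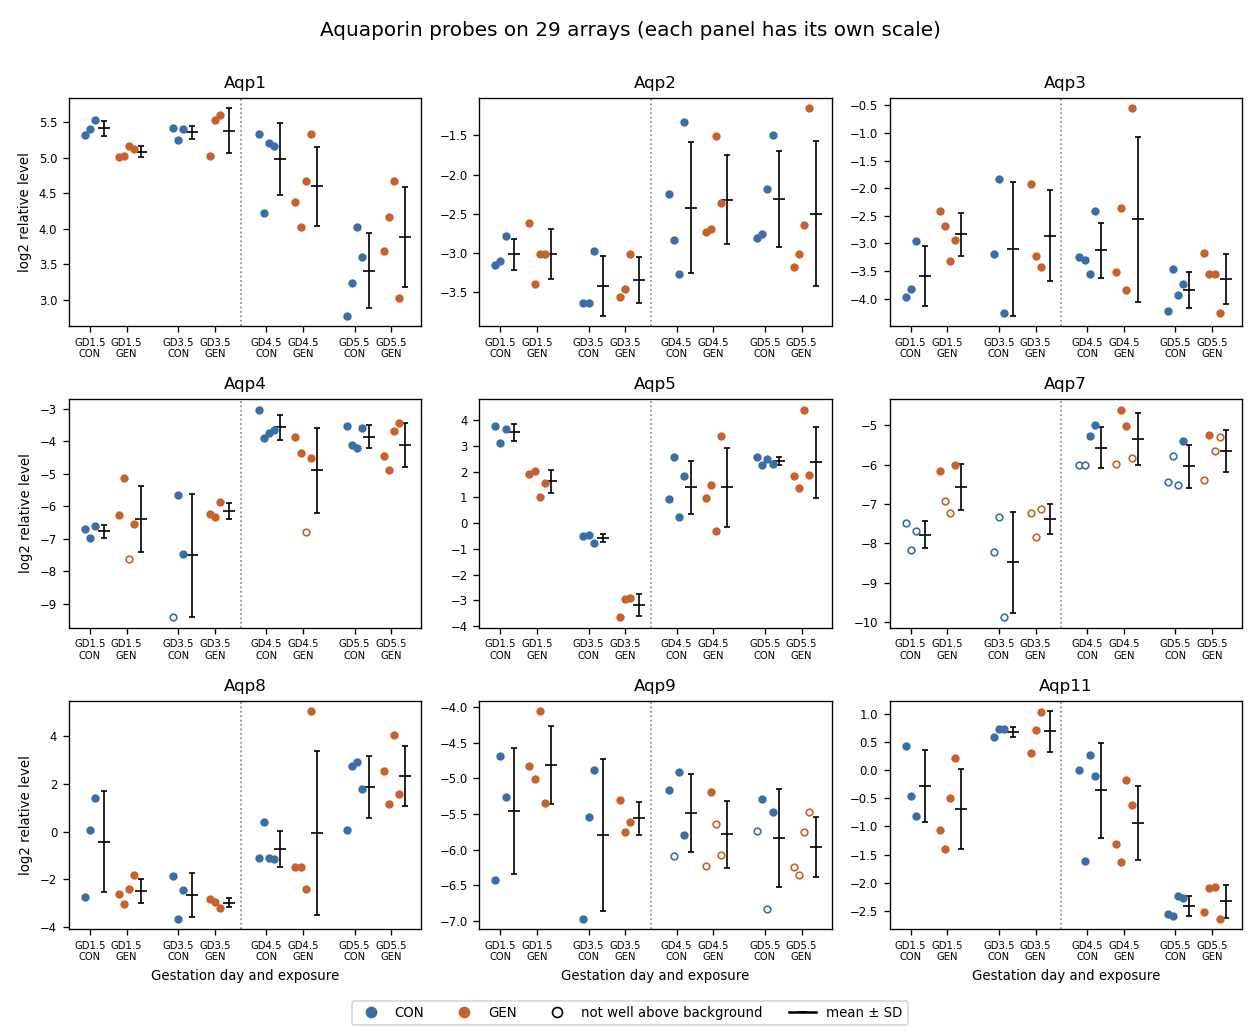
Level of each aquaporin (log2 relative to the 75th percentile of the array) on all 29 arrays by day and exposure, with group mean and SD, where open points were not well above background and each panel has its own scale. Aqp5 drops to GD3.5, Aqp1 and Aqp11 are lowest at GD5.5, and 1 GD4.5 GEN sample of Aqp8 stands at 5.06.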

How the data were processed

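Uterine total RNA was labelled with Cy3, per the labels' protocols, and read on 29 one-colour arrays on 8 slides in 3 scans. The deposited scanner files give processed intensity per spot from Agilent Feature Extraction 9.5, per the submitters' processing notes. The authors' series table holds the same intensity values (largest difference 0%), and 0 of its sample columns were unused. Each array has 45018 spots, 43379 of them not controls.

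Non-uniform and population outlier spots were set to missing, intensity was put on the log2 scale, and each array's 75th percentile was subtracted. Repeated spots were averaged and the brightest probe stood for a gene. Names came from RefSeq by accession (22951 probes), symbol (6659) or synonym (3109), otherwise from the file (8455). Groups and replicate numbers came from the sample titles.

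One limma 3.58.1 fit of 8 group means (R 4.3.3, data.table package 1.17.8) gave 12 comparisons, with Benjamini-Hochberg adjustment over the genes that reached the above-background mark on 3 or more of the arrays compared. The script was tested on simulated data. Alternatives were quantile normalization, normexp (offset 50), scaling to percentile 50, genes detected on every array, probe means, slide or replicate number as a block, the days compared alone, and leaving out each array. A normexp refit was chosen after seeing the data. Within-slide differences stand beside the results. The number of arrays limits the precision. Deviations of CON and GEN samples with the same number were correlated over genes: r was 0.21 to 0.51 for all 4 pairs of GD5.5 (3 on a shared slide), and -0.24 to 0.22 on the other days. Samples of a number may thus be paired at GD5.5, but number and slide can hardly be told apart there.

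All 9 aquaporins are named. Of the lists, up to 3 called genes per list and comparison are named, largest first, and Foxa2, Tek, Gk, Muc1 in GEN and the CON value of Lrp2 were added after their values were seen. For the gland list over the 4 days, Foxa2 is thus named while Wfdc3 (-1.52) and Sox9 (-1.51), which were called too, are not. The 3 genes with the highest r are named per aquaporin above background on at least 15 arrays (8 of 9, without Aqp7), and 2 for Aqp4, since 1 item is not reported here. Members and lists were chosen with earlier results of these data known.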

Additional observations from a re-analysis of the deposited data

Results flagged for a closer look

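In groups of 4 samples, the highest or lowest sample was set against the others by Dixon's test. Of 45 aquaporin groups examined, 4 held a sample far from the rest, and chance marks about 1 in 20. Aqp1 in GD4.5 CON 2 was at 4.23, where the other 3 were at 5.17 to 5.33. Aqp5 in GD5.5 GEN 3 was at 4.41, where the others were at 1.38 to 1.87. Aqp8 in GD4.5 CON 2 was at 0.40, where the others were at -1.14 to -1.09, and in GD4.5 GEN 4 it was at 5.06, where the others were at -2.40 to -1.46. The last 2 of these groups came from the same gene, and all 4 spots were well above background. The Aqp1 value and the first Aqp8 value came from the same sample, GD4.5 CON 2, so the 4 are not separate. In GD5.5 GEN 3 the simple epithelium markers had a median deviation of -0.49, against -1.69 to -0.98 in the other GD5.5 samples. Its summed levels were also the highest of GD5.5 for smooth muscle (10.11), macrophages and dendritic cells (3.86), hormone-responsive genes (6.94), oviduct (0.79) and stratified epithelium (0.65). The same held for uterine stroma (8.69) and luminal ion and fluid transport (6.59). Its summed levels were the lowest of GD5.5 for ovary (0.38), endothelium (5.09) and glycerol handling (5.15). The part of these in the Aqp5 value was not tested.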

How the results depend on the processing

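Each aquaporin difference with an unadjusted p under 0.05, or called under an alternative, was recomputed: 21 differences gave 393 values, of which 372 kept direction and call, 3 lost the call, 11 gained one and 7 changed sign. The 12 counts of called aquaporins gave 237 values, 225 of them within 1.5 times. The GEN count from GD4.5 to GD5.5 was 3 with normexp, 0 with slide as a block and 0 to 2 with an array left out. The GD5.5 GEN to CON count was 1 with normexp, the 4-day count 1 (Aqp7, mostly not above background) with slide as a block and 0 to 1 with an array left out, and the GEN count from GD1.5 to GD3.5 2 with the normexp refit and 1 to 2 with an array left out. Aqp4 at GD5.5 turned to 1.02 with normexp (adjusted p = 0.0211) and 0.22 with the mean over probes, and ran from -0.48 to 0.00 with an array left out. Aqp7 from GD4.5 to GD5.5 turned to 0.01 with normexp and with its refit in CON, and to 1.40 and 0.16 in GEN. Normexp gave 9058 called genes at GD5.5 between exposures (0 otherwise, 8 with the refit) and 11425 for GEN from GD4.5 to GD5.5 (4405 otherwise). It left 5 arrays with a low corrected signal (percentile 5) of 150 to 502, against 58.8 to 84.2 on the other 24, and 59.5 to 65.9 after the refit, which left out spots of high local background and was chosen after seeing the data. These 5 were GD3.5 CON 3, GD3.5 GEN 1 and GD5.5 GEN 1, 2 and 3. Over all genes, calls between exposures at GD1.5, GD3.5 and GD4.5 numbered 20, 21 and 25, and were 5, 6 and 7 with normexp, 38, 62 and 47 with the refit, 5, 10 and 47 with quantile normalization, 6, 7 and 15 for genes above background on all arrays, and 1, 12 and 6 with the days compared alone. With slide as a block the first pair was 12 and 13, and with median scaling GD3.5 gave 35. GD5.5 gave 1 with quantile normalization and 2 with the mean over probes, and the 4-day count of 234 was 130 with normexp and 151 for genes above background on all arrays. From GD1.5 to GD3.5 the CON count of 481 was 214 with normexp, 781 with the refit, 120 with slide as a block and 870 with the days alone, and the GEN count of 971 was 476 with normexp and 1612 with the days alone. From GD4.5 to GD5.5 the days alone gave 4326 in CON (6515 otherwise) and 1348 in GEN, where slide as a block gave 943. Changes of the exposure difference gave 0 to 4 calls, except 38 with normexp for the last step (1 otherwise) and up to 51 with an array left out. With an array left out, calls ranged over 2 to 31, 4 to 20 and 3 to 80 on the first 3 days, 169 to 338 over the 4 days, 176 to 368 and 362 to 1134 in CON and GEN from GD1.5 to GD3.5, and 4836 to 7301 and 2171 to 5607 in the later step. Leaving out GD5.5 GEN 4 gave 227 calls at GD5.5. Of the GEN calls from GD4.5 to GD5.5, 58.8% were higher, and 83.4% with normexp, which moved the median of all genes from 0.09 to 0.35, and of the 4-day calls 32.9%, and 51.5% with normexp. With the replicate number as a block, Aqp5 at GD3.5 was -2.71 (adjusted p = 0.252), and no aquaporin call changed. At GD5.5, where the numbers may pair the samples, the block left 0 calls over all genes. The block takes each number to have the same effect on all 4 days, so it is not a paired test of GD5.5. On the other days r between same-number samples was -0.24 to 0.22, and the labels do not say what a number shares. The causes of these changes were not tested. Signal limits Aqp7 and Aqp9, which were above background on 8 and 19 arrays.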
